A study of Mus musculus with 6 samples.

Results

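The genes described here are the activating receptors NKp46 (Ncr1) and CD16 (Fcgr3) of natural killer (NK) cells together with the adaptors, kinases and scaffolds that carry their signal, 10 genes chosen by exact gene symbol from the 27763 rows of the expression table. They are Ncr1, Fcgr3, Tyrobp, Fcer1g, Hcst, Zap70, Syk, Lat, Lat2 and Vav1, and each matched 1 row. RNA came from the spleens of wild-type C57BL/6 mice aged 6 weeks and was sequenced after poly(A) selection. It falls into the 2 groups cNK and DN NK, with 3 libraries in each, and no treatment or altered allele is labelled for either group. The labels spell out neither name, give no sorting markers and do not say whether libraries came from separate or pooled mice, so every p-value rests on the spread among libraries, and that spread may be technical. Per its title, the series deals with an immature splenic NK subset and the part T-bet plays in its maturation. The sources used here do not say whether any of the 10 genes served to sort the cells.

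Unlike T cells and B cells, NK cells do not rearrange antigen receptor genes. NKp46 recognises ligands on stressed or infected cells, and CD16 binds the constant part of IgG on antibody-coated cells. Neither receptor signals by itself: each sits in the membrane with small adaptor chains that carry immunoreceptor tyrosine-based activation motifs (ITAMs), chiefly the Fc receptor gamma chain (Fcer1g) and, for NKp46, also CD3 zeta (Cd247). DAP12 (Tyrobp) serves activating Ly49 and NKG2C receptors in the same way, whereas DAP10 (Hcst) serves NKG2D and binds phosphoinositide 3-kinase instead of carrying an ITAM. Src-family kinases phosphorylate the ITAMs, the kinases Syk and ZAP-70 dock there, the membrane scaffolds LAT and NTAL (Lat2) are phosphorylated in turn, and Vav1 links the complex to Rac GTPases and the cytoskeleton.

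All 10 genes exceeded the filter of 1 FPKM (fragments scaled to transcript length and to library depth) in each of the 6 libraries, so none was admitted through 1 group alone. In DN NK, 6 of them fell (Ncr1, Fcgr3, Tyrobp, Fcer1g, Syk and Lat2), 1 rose (Lat) and 3 did not pass (Hcst, Zap70 and Vav1), by edgeR's quasi-likelihood test at an adjusted p of 0.05 over 11690 tested rows. Over all tested rows 30.9% were lower, 30.8% higher and 61.7% called in either direction, so calls were common in this comparison and a called member is not in itself unusual. The median log2 fold change, DN NK over cNK, was -0.54 over the 10 genes and -0.02 over all tested rows, where the median size without regard to sign was 0.37. The FPKM values of the groups did not overlap for 9 of the 10 genes, against 70.3% of tested rows. RNA of many cells together was measured, and the labels do not give their composition. Fewer cells of a type and less RNA per cell thus cannot be told apart for any gene below.

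**Figure D1:**
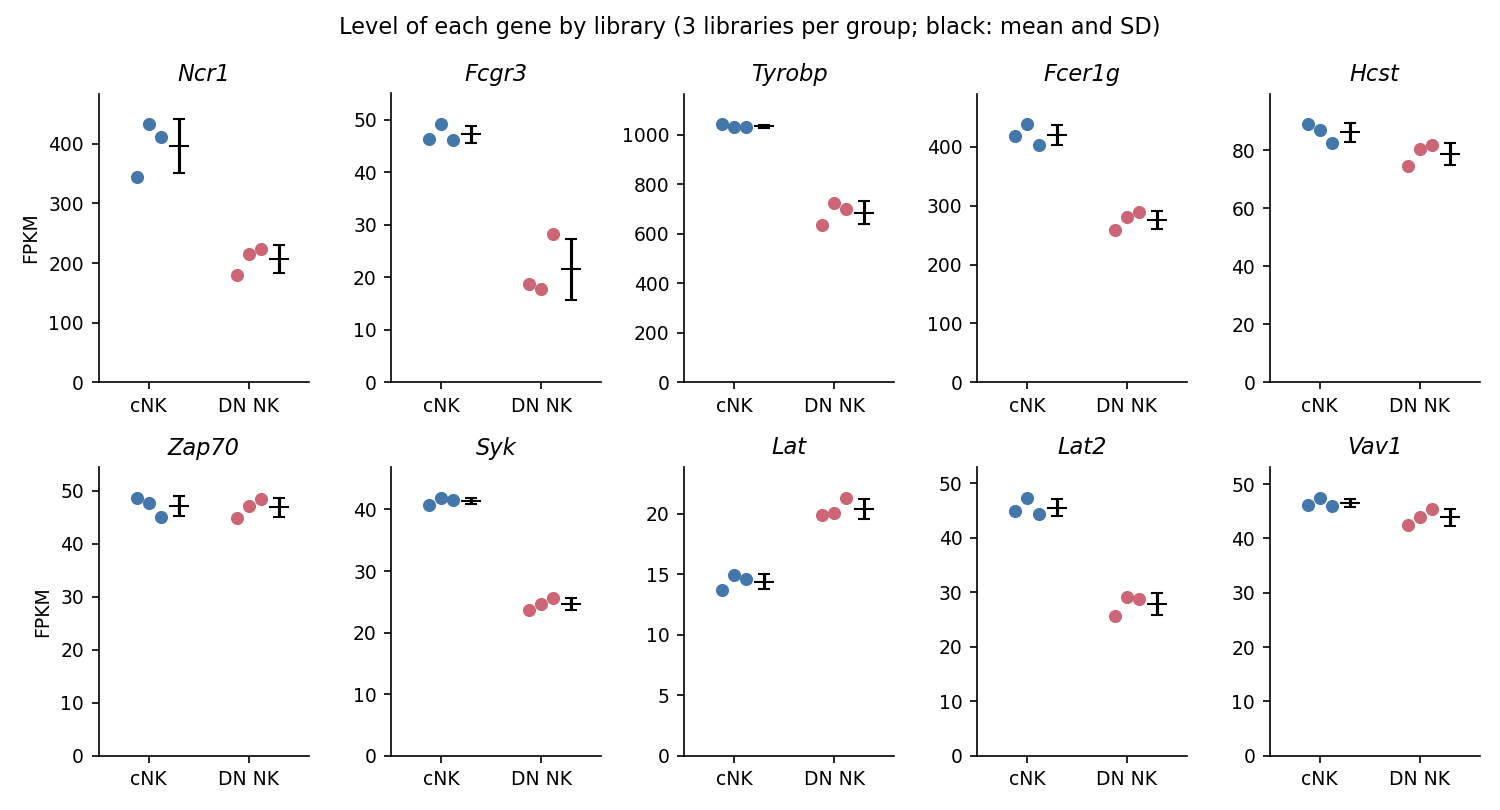
FPKM of each of the 10 genes (vertical axes, each starting at 0) in the 3 cNK and 3 DN NK libraries (points), with the mean and SD of each group in black. Ncr1, Fcgr3, Tyrobp, Fcer1g, Syk and Lat2 are lower in all DN NK libraries, Lat is higher, and the Zap70 points of the groups overlap.

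Both receptor genes fell. Ncr1, which encodes NKp46, stood at 345, 433 and 411 FPKM in cNK replicates 1, 2 and 3, and at 180.2, 215 and 224 FPKM in DN NK replicates 1, 2 and 3. The highest DN NK library lay below the lowest cNK library, and replicate 1 was the lowest of its group in both. The means of 396 ± 45.5 and 206 ± 23.2 FPKM (SD, n = 3 libraries each) gave a log2 fold change of -0.88 (SE 0.10), 1.84-fold lower in DN NK with an adjusted p of 0.000175 by edgeR. Ncr1 remained an abundant transcript, at rank 122 of the 11690 tested rows by mean FPKM in cNK and rank 222 in DN NK.

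Fcgr3, the gene of CD16, stood at 46.3, 49.1 and 46.2 FPKM in the cNK libraries and at 18.6, 17.7 and 28.2 FPKM in the DN NK libraries. DN NK replicate 3 was higher than the other two, which gave the gene the widest relative spread of the 10, but it stayed below every cNK library. Its log2 fold change was -1.08 (SE 0.18, edgeR adjusted p = 0.00307), and -1.31 without DN NK replicate 3. This was the largest fall among the 10, at 2.11-fold, with an interval of -1.52 to -0.63 that includes the Ncr1 value. The Fcgr3 transcripts share a stretch of 512 bases at 96.3% identity with those of Fcgr2b, the inhibitory IgG receptor, so reads could be divided between the genes. Fcgr2b was at 9.75 ± 0.428 FPKM in cNK and 3.13 ± 0.0955 FPKM in DN NK, with values of 3.19, 3.02 and 3.19 FPKM in DN NK replicates 1, 2 and 3, so the higher Fcgr3 level of replicate 3 was not seen for Fcgr2b.

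In the deposited coordinates, which match GENCODE M21 on GRCm38 for all 10 genes, Ncr1 (ENSMUSG00000062524) spans chr7:4337724-4345164 on the plus strand and Fcgr3 (ENSMUSG00000059498) spans chr1:171051174-171064935 on the minus strand. The 250 bases before the transcription start are shown for 3 genes, chosen because Ncr1 fell, Lat rose and Vav1 did not pass the test. They come from RefSeq promoter windows on GRCm38.p6, in which 8 of the 10 genes matched (not Tyrobp and Lat2), and are written 5′ to 3′ on the gene's strand. Capitals mark the letters TGTGGT, bound by RUNX factors (ACCACA on the other strand), TCACACC, known from T-box factors (GGTGTGA), and GGAAGT, known from ETS factors (ACTTCC).
Ncr1, chr7:4337474-4337723, plus strand: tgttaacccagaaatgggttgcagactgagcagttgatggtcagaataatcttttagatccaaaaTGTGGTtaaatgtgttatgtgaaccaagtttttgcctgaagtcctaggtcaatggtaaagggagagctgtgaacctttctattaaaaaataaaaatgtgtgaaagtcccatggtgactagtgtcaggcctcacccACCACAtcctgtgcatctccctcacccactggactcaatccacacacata
Lat, chr7:126369569-126369818, minus strand: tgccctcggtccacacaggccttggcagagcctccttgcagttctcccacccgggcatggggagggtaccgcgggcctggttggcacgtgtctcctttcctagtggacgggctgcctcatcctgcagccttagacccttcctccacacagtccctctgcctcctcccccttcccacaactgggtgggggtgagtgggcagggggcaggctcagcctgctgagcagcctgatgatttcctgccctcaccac
Vav1, chr17:57278850-57279099, plus strand: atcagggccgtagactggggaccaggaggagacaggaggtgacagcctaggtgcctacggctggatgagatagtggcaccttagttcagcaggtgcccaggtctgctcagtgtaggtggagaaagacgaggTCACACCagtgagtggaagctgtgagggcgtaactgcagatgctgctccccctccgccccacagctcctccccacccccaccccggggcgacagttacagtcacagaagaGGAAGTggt
The Ncr1 window holds the RUNX letters at 2 places, beginning 185 and 50 bases before the start, and no other matched gene holds them in the window used. For Fcgr3 the RefSeq start used lies 5532 bases inside the deposited span, and for Syk 264 bases inside. Their windows overlap their own exons and are not the bases before the deposited 5′ end. For Fcer1g and Lat the start used lies 16 and 2 bases inside the deposited span, and these windows also overlap an exon of the same gene. Over 32817 RefSeq windows of this length, 14.0% hold the RUNX letters, 3.33% the T-box letters and 19.7% the ETS letters. Of the 8 matched genes, 1 holds the RUNX letters, 1 the T-box letters and 2 the ETS letters. Vav1 holds the T-box letters 119 bases and the ETS letters 9 bases before its start, and Hcst holds the ETS letters at 2 places. The Lat window holds none of the 3, nor do those of Fcgr3, Fcer1g and Syk, which fell, and Zap70, which did not pass. The marked letters do not overlap one another in the printed windows. A match describes the sequence only, and no binding was measured.

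Both ITAM adaptors among the 10 fell. Tyrobp, the DAP12 gene, was the most abundant of the 10 in every library, at 1042, 1031 and 1031 FPKM in cNK and 634, 724 and 699 FPKM in DN NK. The cNK libraries lay close together and well above all DN NK libraries, with a log2 fold change of -0.53 (SE 0.05, 1.45-fold lower, edgeR adjusted p = 5.52e-05). At rank 41 in cNK and rank 61 in DN NK, Tyrobp stayed among the strongest transcripts of both groups.

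Fcer1g, the gene of the shared Fc receptor gamma chain, was at 418, 438 and 404 FPKM in cNK and at 259, 280.5 and 289 FPKM in DN NK. The groups did not overlap, and the log2 fold change of -0.54 (SE 0.05, edgeR adjusted p = 3.38e-05) was close in size to that of Tyrobp. Cd247, the CD3 zeta gene and the other ITAM chain of NKp46, was far lower in level, at 34.7, 36.8 and 34.7 FPKM in cNK and 15.0, 15.1 and 16.1 FPKM in DN NK. It fell 2.20-fold (log2 fold change -1.14, SE 0.05, edgeR adjusted p = 4.43e-07).

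The FPKM ratio of Fcer1g to Cd247 within a library does not depend on how libraries are scaled. It was 12.03, 11.9 and 11.6 in cNK and 17.2, 18.5 and 17.8 in DN NK, so every DN NK library held more gamma chain transcript relative to CD3 zeta than any cNK library. The difference in the log2 ratio was 0.59, larger than the SDs of 0.027 and 0.052 within the groups. An exact 2-sided permutation test gave p = 0.1, the smallest value that 3 libraries against 3 can reach, and p = 0.1 after adjustment over the 4 ratios compared.

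Hcst, the DAP10 gene, lies tail to tail with Tyrobp on chromosome 7, with 126 bases between the deposited spans and no shared exon. Its levels were 89.0, 87.0 and 82.7 FPKM in cNK and 74.5, 80.4 and 81.7 FPKM in DN NK. The DN NK libraries were all slightly below the cNK libraries in FPKM, but on estimated counts with TMM scaling the log2 fold change was -0.07 (95% interval -0.20 to 0.06) and did not pass (edgeR adjusted p = 0.324). With upper quartile scaling it was -0.15 and passed (edgeR adjusted p = 0.0439). The ratio of Tyrobp to Hcst was 11.7, 11.8 and 12.5 in cNK and 8.50, 9.003 and 8.55 in DN NK, a difference of -0.47 in the log2 ratio (exact 2-sided permutation p = 0.1, the smallest possible). Klrk1, the gene of NKG2D, which signals through DAP10, fell from 161 ± 10.2 to 99.1 ± 3.21 FPKM and was singled out after its values were seen.

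**Figure D2:**
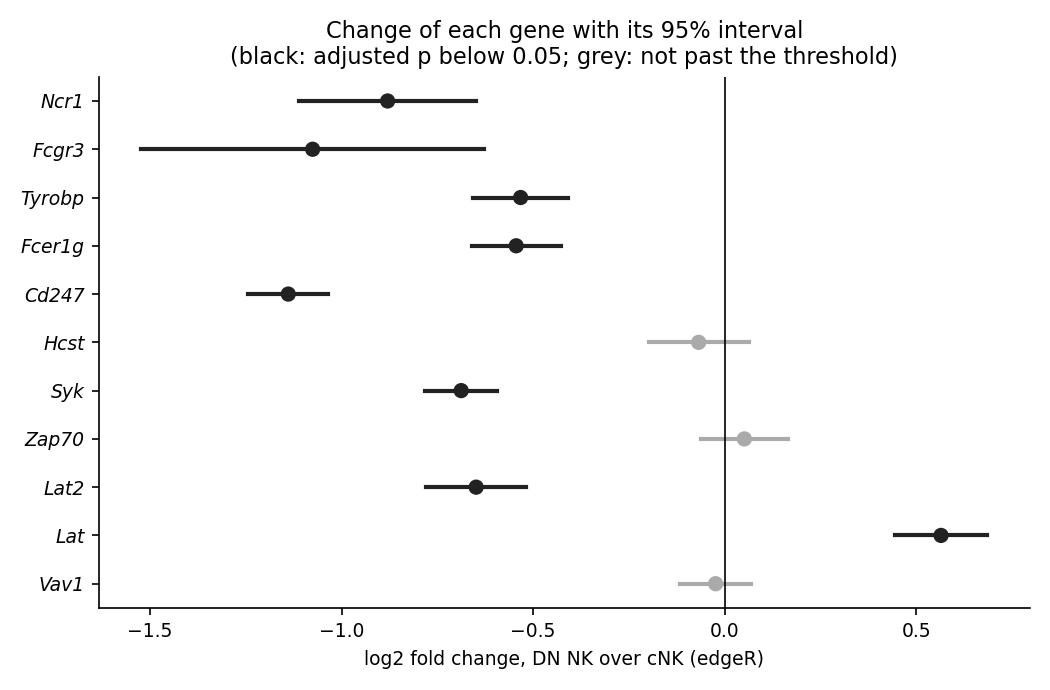
Log2 fold change of DN NK over cNK by edgeR (horizontal axis) for the 10 genes and Cd247, with 95% intervals as bars. Black genes passed an adjusted p of 0.05 and grey genes did not. Lat, at 0.56, is the only black gene to the right of 0, and the intervals of Hcst, Zap70 and Vav1 include 0.

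Of the kinases that dock on phosphorylated ITAMs, Syk fell and Zap70 did not pass. Syk, which couples to ITAMs in B cells and myeloid cells as well as NK cells, stood at 40.8, 41.9 and 41.5 FPKM in cNK and at 23.6, 24.6 and 25.6 FPKM in DN NK. Within each group the libraries were nearly level, and the groups were widely separated. Syk fell 1.61-fold (log2 fold change -0.69, SE 0.04, edgeR adjusted p = 3.45e-06).

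Zap70, its relative in T cells and NK cells, was at 48.6, 47.7 and 45.04 FPKM in cNK and 44.9, 47.2 and 48.4 FPKM in DN NK. The libraries of the groups were interleaved. The log2 fold change was 0.05 (95% interval -0.06 to 0.17, edgeR adjusted p = 0.395), and its sign turned in 4 of 15 alternative analyses, so no direction is given. The ratio of Syk to Zap70 was 0.839, 0.878 and 0.921 in cNK and 0.527, 0.523 and 0.530 in DN NK. Syk transcript was thus near the level of Zap70 in cNK and 1.67-fold lower relative to it in DN NK, a log2 difference of -0.74 against SDs of 0.068 and 0.010 within the groups (exact 2-sided permutation p = 0.1, the smallest possible).

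**Figure D3:**
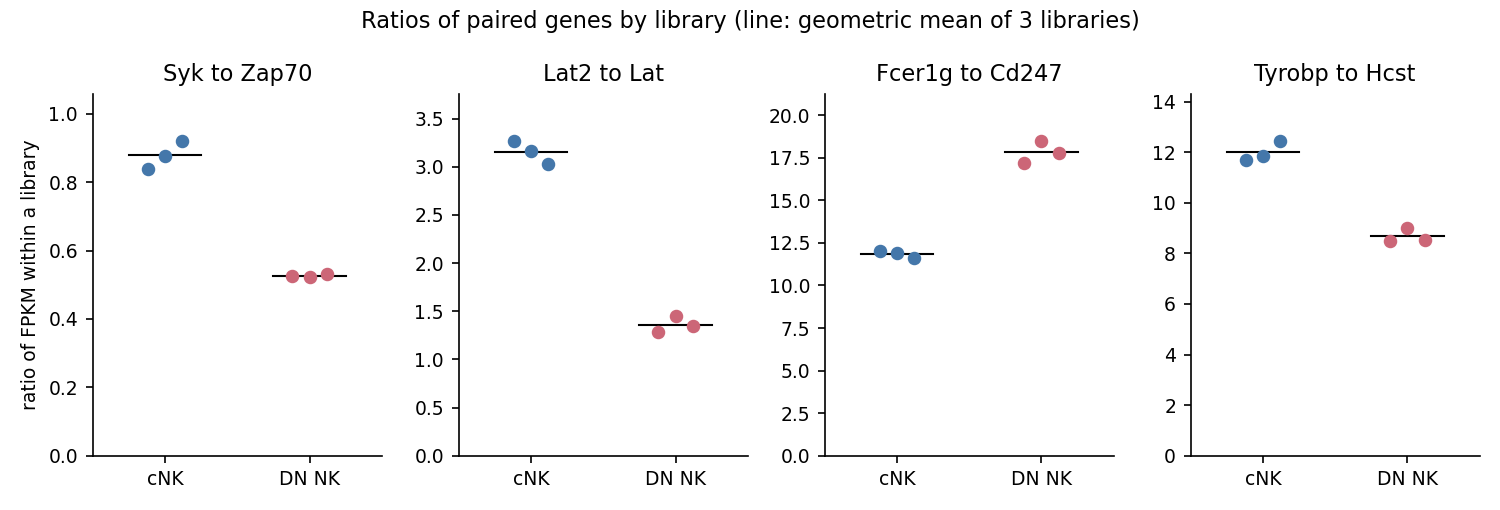
Ratio of FPKM of 2 genes within each library (vertical axes, each starting at 0) for the 3 cNK and 3 DN NK libraries (points), with the geometric mean of each group as a line. Syk to Zap70, Lat2 to Lat and Tyrobp to Hcst are lower and Fcer1g to Cd247 is higher in all DN NK libraries.

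The membrane scaffolds moved in opposite directions. Lat2 encodes NTAL, a LAT-like scaffold of B cells, mast cells and NK cells, and was at 44.9, 47.3 and 44.4 FPKM in cNK and 25.6, 29.1 and 28.8 FPKM in DN NK. All DN NK libraries were lower, by 1.57-fold (log2 fold change -0.65, SE 0.06, edgeR adjusted p = 2.44e-05). Of the 2621 exon bases of Lat2 in GENCODE M21, 952 (36.3%) are also exon bases of Rfc2, a replication factor gene on the opposite strand, and 7 of its 10 transcripts touch them. The library kit does not mark strand, so the kit gives no means to tell which of these genes a read lying wholly there came from. Rfc2 itself was lower in DN NK, at 10.7 ± 0.783 against 17.0 ± 0.221 FPKM (log2 fold change -0.61), and its part in the Lat2 result was not tested.

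Lat, the scaffold best known from T cell receptor signalling, was at 13.7, 14.9 and 14.6 FPKM in cNK and at 19.9, 20.0 and 21.3 FPKM in DN NK. Every DN NK library was above every cNK library, and Lat rose 1.48-fold (log2 fold change 0.56, SE 0.05, edgeR adjusted p = 3.43e-05). The next gene on the same strand, Spns1, lies upstream with 489 bases between the spans and no exon in common, and it was also higher in DN NK, at 9.41 ± 0.530 against 5.03 ± 0.388 FPKM. Markers of T cells, which express Lat, were read beside it. Of the 12 markers on the list all 6 that were tested were higher, against 30.8% of all tested rows. Of these, Cd4 passed the filter only through DN NK. The 12 summed to 497 to 514 FPKM in cNK and 647 to 683 FPKM in DN NK, most of it Trbc1 and Trbc2. In cNK, Trbc1 was at 359 ± 8.52 FPKM and Trbc2 at 131 ± 4.15 FPKM, while Cd3e was at 0.0218 ± 0.0214 FPKM. The sum is therefore not a measure of T cell RNA. Trbc1 rose 1.23-fold and Trbc2 1.39-fold. Cd3d rose from 4.54 ± 0.358 to 38.5 ± 0.873 FPKM, and Cd4 was at 0.0160 ± 0.0202 FPKM in cNK and 3.51 ± 0.290 FPKM in DN NK, while Cd3e, Cd8a, Cd8b1, Cd5, Cd6 and Themis had means below 1 FPKM in both groups. The part of Spns1 and of these markers in the Lat result was not tested.

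Per length, Lat2 transcript exceeded Lat by 3.27, 3.16 and 3.03 times in cNK and by 1.29, 1.45 and 1.35 times in DN NK. The ratio was 2.31-fold lower in DN NK, the widest shift of the 4 ratios, with a log2 difference of -1.21 against SDs of 0.056 and 0.087 within the groups (exact 2-sided permutation p = 0.1, the smallest possible, also after adjustment over the 4).

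Vav1, the exchange factor for Rac GTPases, was at 46.2, 47.4 and 46.0 FPKM in cNK and 42.4, 43.9 and 45.5 FPKM in DN NK. The FPKM values of DN NK were all a little lower, but the log2 fold change on estimated counts was -0.02 (95% interval -0.12 to 0.07, edgeR adjusted p = 0.628). As for Hcst, upper quartile scaling gave a larger value that passed, -0.11 (edgeR adjusted p = 0.0430). That scaling put the median of all tested rows at -0.10.

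The order of the levels changed below the adaptors. In both groups Tyrobp led, followed by Fcer1g, Ncr1 and Hcst, and the ranges of Fcer1g and Ncr1 overlapped in cNK (404 to 438 against 345 to 433 FPKM) but not in DN NK. In cNK the next 4, Fcgr3, Zap70, Vav1 and Lat2, lay between 44.4 and 49.1 FPKM with each range overlapping that of its neighbour, and Syk and then Lat followed without overlap. In DN NK, Zap70 and Vav1 overlapped each other and stood above Lat2, Syk, Fcgr3 and Lat, each of which overlapped the next. Lat had the lowest mean in both groups, at 14.4 FPKM below Syk at 41.4 FPKM in cNK, and at 20.4 FPKM below Fcgr3 at 21.5 FPKM in DN NK. In DN NK replicates 1 and 2 Fcgr3 lay below Lat, so the order of these means rests on the Fcgr3 value of replicate 3.

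A wider list of 22 receptors and ITAM chains, called partner receptors here, also takes in genes not described above as partners of these adaptors. Among them are the adhesion receptor gene Cd2 and the inhibitory receptor gene Fcgr2b. Of the 22, 18 matched the table and 12 were tested. In DN NK 10 of them fell, 1 rose and 1 did not pass, with a median log2 fold change of -1.22. Over all tested rows 30.9% were lower and 30.8% higher. Klra4 and Klra8, which encode the DAP12-coupled receptors Ly49D and Ly49H, fell 3.36-fold and 2.84-fold, from 638 ± 26.3 to 182 ± 6.88 FPKM and from 916 ± 43.1 to 308 ± 13.9 FPKM. Klra genes are near-identical copies and may exchange reads, so these values are uncertain. Cd2, an adhesion receptor, fell 3.06-fold and Fcgr2b 2.98-fold. Cd226, which encodes the activating receptor DNAM-1, rose 2.03-fold to 35.8 ± 4.07 FPKM, and Slamf6 did not pass (log2 fold change -0.18). The 6 untested members, among them the myeloid receptor genes Fcgr1, Fcgr4 and Trem1, stayed at or below 0.0968 FPKM in every library.

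Upstream of the ITAMs, 11 of 14 listed Src-family kinases and their regulators were tested, with 5 lower, 3 higher and 3 not past, and a median of -0.10. The shares over all tested rows were 30.9% lower and 30.8% higher. Lck and Fyn, the main Src-family kinases of T cells and NK cells, fell 1.37-fold to 147 ± 6.76 FPKM and 1.44-fold to 99.8 ± 0.813 FPKM. The adaptor gene Skap1 and Ptprc, which encodes the phosphatase CD45, also fell, with log2 fold changes of -0.50 and -0.31. Lyn, a kinase of B cells and myeloid cells, rose 1.39-fold to 22.6 ± 0.912 FPKM, and Ptpn22, a phosphatase that restrains Src-family and ZAP-70 signals, rose 1.598-fold to 54.5 ± 2.70 FPKM. Blk was at 2.46 ± 0.738 FPKM in DN NK and 0.00725 ± 0.0126 FPKM in cNK. Counted among the 3 higher, it passed the filter only through DN NK, and it is also among the B cell markers.

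Downstream of the scaffolds the list split, with 15 of 32 tested genes higher, 11 lower and 6 not past, and a median of 0.07. Among all tested rows 30.8% were higher and 30.9% lower. Tec, which encodes a kinase of the same name, rose 2.92-fold to 29.5 ± 3.77 FPKM. Vav2 and Vav3, the paralogs of Vav1, rose 2.88-fold and 1.80-fold, although their levels of 5.68 ± 0.289 and 7.31 ± 0.379 FPKM in DN NK remained well below that of Vav1. Nck1, an adaptor to the actin machinery, fell 1.99-fold and Mapk3, which encodes ERK1, 1.88-fold. Prkcq, which encodes protein kinase C theta, and Rac2, the haematopoietic Rac that Vav proteins activate, fell by 0.53 and 0.50 on the log2 scale, with Rac2 at 224 ± 16.3 FPKM in DN NK.

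Among genes that dampen these signals, 17 of 19 were tested, with 11 lower, 4 higher and 2 not past, and a median of -0.22. All tested rows gave 30.9% lower and 30.8% higher. Sla, which encodes the adaptor SLAP, fell 1.90-fold, Spry2 1.78-fold to 293 ± 16.0 FPKM, Dok2 1.72-fold and Sla2 1.44-fold. Cblb, an E3 ubiquitin ligase that limits activation of T cells and NK cells, rose 1.59-fold to 43.5 ± 0.393 FPKM. Dgka, a diacylglycerol kinase, rose 1.64-fold and Inpp5d, the gene of the phosphatase SHIP1, 1.38-fold. Dok3, the other of the 4 higher, was at 2.28 ± 0.431 FPKM in DN NK and 0.0779 ± 0.0409 FPKM in cNK, and passed the filter only through DN NK.

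**Figure D4:**
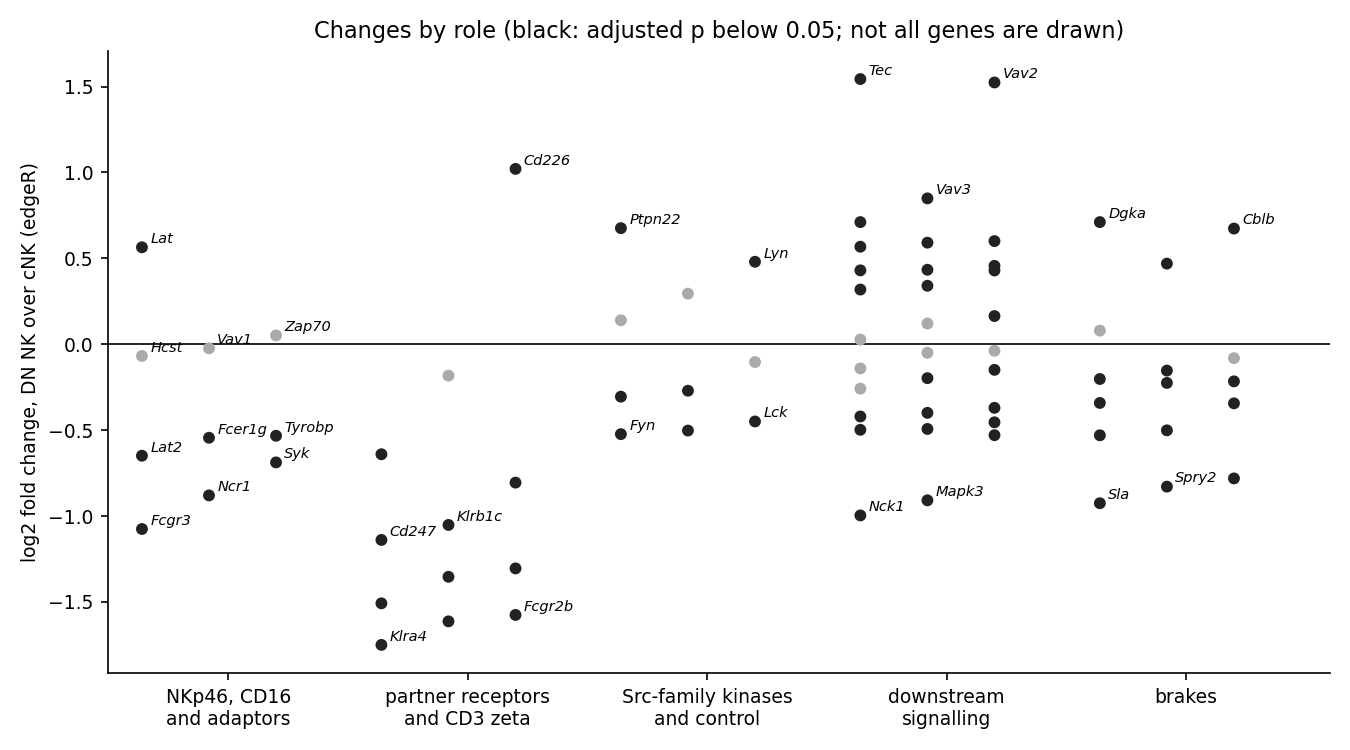
Log2 fold change of DN NK over cNK by edgeR (vertical axis) for tested genes (points) of the 10 described genes and of 4 lists grouped by role; Blk and Dok3 lie above the axis and are not drawn, and the sideways position within a group has no meaning. Black points passed an adjusted p of 0.05 and grey points did not. Partner receptors lie mostly below 0 with a median of -1.22, and the downstream genes spread to both sides.

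Several of the 10 genes are also used by B cells (Syk, Lat2), myeloid cells (Tyrobp, Fcer1g, Fcgr3, Syk) and basophils or mast cells (Fcer1g, Lat2), so the levels of their markers were read beside them. The 12 B cell markers summed to 5.77 to 6.81 FPKM in cNK and 198 to 236 FPKM in DN NK, most of it Cd74 at 166 ± 13.9 FPKM, with Cd79a at 11.8 ± 1.33 FPKM. All 9 tested were higher in DN NK, against 30.8% of all tested rows. The 9 are admitted mainly by their DN NK levels, since only Cd22 and Cd74 of the 12 reach a mean of 1 FPKM in cNK. Of 17 myeloid markers matched, 15 had means below 1 FPKM in both groups, with no library above 1.18 FPKM, and Fcgr4, Csf3r, S100a8 and S100a9 were at 0 in all cNK libraries. The exceptions were Itgax, at 188 ± 6.93 FPKM in cNK and 124 ± 6.02 FPKM in DN NK, and Cd68, at 5.82 ± 0.284 and 4.90 ± 0.622 FPKM, and NK cells are known to express Itgax. The myeloid list summed to 189 to 203 FPKM in cNK and 126 to 138 FPKM in DN NK. Of 8 basophil and mast cell markers, 7 had means below 1 FPKM in both groups, with no library above 0.443 FPKM, and Mcpt8, Ms4a2, Cd200r3 and Prss34 were at 0 in all cNK libraries. The list summed to 3.26 to 4.06 FPKM in cNK and 3.27 to 3.86 FPKM in DN NK, most of it Il3ra. The part of these cell types in the values of the 10 genes was not tested. All 14 genes of the NK list reached 1 FPKM in both groups, with Nkg7 at 1480 ± 21.1 and 633 ± 46.0 FPKM. In DN NK 11 were lower, 1 higher and 2 not past, against 30.9% lower and 30.8% higher over all tested rows. Of the 14, Klrb1c, Klrk1 and Klrd1 are also on the partner receptor list and Txk is on the downstream list.

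Ncr1 and Syk were each compared over the 6 libraries with 6121 other rows whose mean was 5 FPKM or more. The measure was the Pearson correlation of log2(FPKM + 1). Gene models, clone names and immunoglobulin and T cell receptor segments were left out. Most like Ncr1 were Elk3, Idh3b and Tmem43, each at r = 0.999. They fell less than Ncr1, by 0.39, 0.30 and 0.46 on the log2 scale. Closest to Syk were Nkg7, Cdc25b and Zeb2, with r between 0.9997 and 0.9999 and log2 fold changes of -1.17, -1.61 and -1.62. With 6 libraries in 2 separated groups high correlations are common: 1911 rows exceeded r = 0.9 with Ncr1 and 1924 with Syk. Rows at r = 0.999 or more were not counted. These correlations describe a shared difference between the groups and carry no test.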

How the data were processed

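Poly(A) RNA of 6 libraries was sequenced on a kit without strand marking, per the labels' protocols. HISAT, StringTie, edgeR and GRCm38 (mm10) are named in the submitters' processing notes; versions and settings are not given in the sources used here. Per the file headers, the authors deposited FPKM and a count for each gene row. The deposited counts behave as estimated counts: in rows with 1 transcript the values from 1 to 6 pile up at 4, taken as the worth of 1 read pair. Estimated counts per library ranged from 79798234 to 89526647 and those of the 10 genes from 2877 to 71540. At 4 for 1 read pair, the libraries held an estimated 19949558 to 22381662 read pairs. The main test used the undivided counts, and a fit on counts divided by 4 called 7249 rows.

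Rows reaching 1 FPKM in 3 or more libraries were tested, on the estimated counts, with edgeR 4.0.16 in R 4.3.3 (TMM, robust quasi-likelihood, 2-sided, Benjamini-Hochberg over 11690 rows, group as the only term). The standard error is the log2 fold change divided by the square root of F. Ratios used FPKM + 0.1 and exact permutation tests (scipy 1.17.1). Alternatives used DESeq2 1.42.0, limma 3.58.1 on log2(FPKM + 1 or 0.1), other scalings and filters, and left out each library. The code was tested on simulated data. Near copies were sought with BLAST 2.17.0 at 95% identity. Members and lists were chosen with earlier results of these data known. From the 4 signalling lists, up to 4 genes in each direction were named, those with the largest changes past the threshold without overlap. Of these, 1 downstream gene is not reported here and is not drawn, though the counts and medians include it. Cd244a was matched by its older symbol Cd244.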

Additional observations from a re-analysis of the deposited data

How the results depend on the processing

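The 10 genes gave 6 lower and 1 higher in 14 of 15 alternative analyses, and 8 lower and 1 higher with upper quartile scaling, where Hcst and Vav1 also passed. That scaling called 4373 of all tested rows lower and 3104 higher, against 3613 and 3602 with TMM. The 6 fallen genes and Lat passed in all 15, with Fcgr3 between -1.31 and -0.96 on the log2 scale. Zap70 did not pass in any, and its log2 fold change turned to -0.034 with upper quartile scaling, -0.0087 and -0.0088 with limma at a pseudocount of 1 and 0.1 FPKM, and -0.013 without a filter. All tested rows gave 7215 calls, 4614 when a mean of at least 5 FPKM was asked for (fewer rows were tested), and 6597 to 7044 when libraries were left out in turn. Without a filter, 2 partner receptors and 5 Src-family genes were higher, since more rows were tested. With the replicate number as a block, 7222 rows were called and the calls of the 10 genes were the same. Whether the numbers pair the libraries is not known. Deviations of same-numbered libraries correlated at 0.046, 0.036 and 0.16, and those of differently numbered libraries at -0.098 to 0.056. Replicates 2 and 3 of cNK correlated best with the DN NK library of the same number. For cNK replicate 1 it was DN NK replicate 2, at 0.056. These small correlations cannot settle the pairing. The 4 ratios kept their direction in all 9 alternatives each, but 3 libraries against 3 cannot reach p below 0.1.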

Other observations

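Grb2, the adaptor that binds phosphorylated LAT and NTAL, was at 52.8, 31.6 and 34.1 FPKM in cNK replicates 1, 2 and 3 and at 48.9, 21.7 and 24.3 FPKM in DN NK replicates 1, 2 and 3. Replicate 1 was the highest library of both groups, and the gene did not pass (log2 fold change -0.26, edgeR adjusted p = 0.640). Over the 15 alternatives the log2 fold change ran from -0.74 without DN NK replicate 1 to 0.02 without cNK replicate 1, and only the fit with the replicate number as a block passed (edgeR adjusted p = 0.0369). It was singled out after its values were seen.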
